A study of Mus musculus with 10 samples.

Results

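The transcription factor families covered here were read by 119 of the 15600 clones on the array, which carry the symbols of 85 genes. Members were chosen by gene symbol, from names of the KLF, forkhead, SOX, HOX, STAT, E2F, ATF, C/EBP, nuclear receptor, GATA, TEAD, IRF, Jun, Fos, ELF, TCF, SMAD, ID and HMGA groups and of the circadian clock, with Klf9, Atf3 and Nr3c1 left out. The rule uses no measured value, though it was set with earlier results of these data known. The label holds for most of them but not all. ID, PER and CRY proteins do not bind DNA in a sequence-specific way, HMGA proteins bind AT-rich DNA through its minor groove, and 12 clones of 6 genes (Atf7ip, Cebpzos, Irf2bpl, Nr2c2ap, Tcf19 and Tcf25) match by name alone. Without those 6 genes, the clones listed higher only numbered 22 and those lower only 35, against 25 and 37 with them.

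RNA came from M-1 cells, a single immortalised line from the mouse cortical collecting duct, at passages 34 to 36. Cells titled treated received 100 nM dexamethasone, a synthetic glucocorticoid, for 3 h, and cells titled control received steroid-free medium. Spotted cDNA arrays with 2 spots per clone were read in Cy3 and Cy5, as 3 pairs of treated Cy5 with control Cy3 and 2 pairs with control RNA in both channels. The labels contradict each other. Of the 7 channels with a control title, 5 have dexamethasone in their treatment field, and groups here rest on the titles. By that field only the first control pair and the third treated pair hold dexamethasone in 1 channel of 2. Nothing in the labels says that replicates came from separate cultures. The p-values therefore measure at most how far these samples spread, and that spread may be technical. Dyes were not swapped, and treatment, the Cy5 dye and the set of arrays cannot be told apart from each other within the treated pairs, nor can fewer cells with a transcript be told apart from less of it per cell.

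The glucocorticoid receptor is itself a transcription factor of the nuclear receptor class. Bound by hormone, it enters the nucleus and changes transcription directly at DNA response elements and indirectly through other factors, among them AP-1 (dimers of Fos and Jun proteins) and STAT proteins. Genes for transcription factors are often among the early responders to a hormone, and their products alter further genes. In collecting duct cells the steroid receptors are best known for raising sodium transport.

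The treated arrays list only spots with outlying ratios. They hold 3778, 3994 and 4002 spots (12.1%, 12.8% and 12.8%), and their centred log2 Cy5/Cy3 ratios begin at 0.29, 0.48 and 0.27 in size, while the control pairs are almost complete. A clone with no listed spot has no measured fold, and a treated mean can be enlarged and its SD narrowed by this selection. Here "listed higher" or "listed lower" gives the direction of a listed spot on a treated array, Cy5 over Cy3. Median spot intensity ran from 327 to 1076 over the channels of the control pairs. Of the 10 measured markers of collecting duct and epithelium, Krt7, Krt8, Krt18, Krt19 and Epcam had median intensities of 5908 to 13298 on the control arrays. The others were lower, with Tfcp2l1 at 1136, Gata3 at 776.5, Slc4a1 at 547.5, Cldn8 at 387.5 and Cdh1 at 382. Aqp2 and the sodium channel subunits were not analysed here. The 7 fibroblast markers measured had medians of 391.5 to 788.5, and the 3 leukocyte and endothelial ones 437.5 to 478, none of them at 0. Raw intensities of different arrays are on no common scale. With so few arrays the precision is limited by their number.

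The clones listed on all 3 treated arrays in 1 direction were those of Hmga2, Id2 and Foxj2. The 250 bases before the RefSeq start of each gene are shown (GRCm38.p6), because these genes lead the account and the receptor acts through DNA elements. Capitals mark GC boxes (GGGCGG on either strand), the binding site of SP and KLF proteins, and no other searched motif was found in the 3 windows. The Hmga2 window is chr10:120476470-120476719 on the minus strand, that of Id2 chr12:25096093-25096342 on the minus strand and that of Foxj2 chr6:122819934-122820183 on the plus strand.
Hmga2: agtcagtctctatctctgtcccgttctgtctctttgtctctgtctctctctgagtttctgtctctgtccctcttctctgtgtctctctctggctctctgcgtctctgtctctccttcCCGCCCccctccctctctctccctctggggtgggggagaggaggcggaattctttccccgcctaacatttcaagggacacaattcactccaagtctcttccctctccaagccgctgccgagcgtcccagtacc
Id2: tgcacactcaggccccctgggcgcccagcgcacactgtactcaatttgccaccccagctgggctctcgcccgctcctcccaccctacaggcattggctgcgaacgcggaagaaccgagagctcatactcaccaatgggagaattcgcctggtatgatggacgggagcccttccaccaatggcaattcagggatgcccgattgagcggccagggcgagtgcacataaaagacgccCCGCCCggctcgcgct
Foxj2: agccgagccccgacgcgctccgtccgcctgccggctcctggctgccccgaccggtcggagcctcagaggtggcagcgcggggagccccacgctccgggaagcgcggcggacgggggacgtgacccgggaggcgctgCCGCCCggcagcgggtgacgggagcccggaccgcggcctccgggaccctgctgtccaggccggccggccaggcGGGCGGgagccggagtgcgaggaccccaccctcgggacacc

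RefSeq promoters matched 69 of the 85 genes. Members were counted by gene, where a match in any promoter of the gene was enough. The background was counted by promoter and was not limited to genes of a like kind, so the shares below differ in unit. A GC box stood in the window of 49 of the 69 (71%), against 32.7% of all 32851 promoters. The single hexamer of the glucocorticoid response element, AGAACA on either strand, stood in 6 of the 69 (8.7%), namely Atf2, Nr5a2, Sox15, Sox21, Stat3 and Tcf3, against 16.1% of all promoters. The full element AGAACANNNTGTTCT, which contains that hexamer at each end, was found in 0 of the 69 and in 3 promoters in all. The other motifs searched, on both strands, were TGACTCA (AP-1, 1 gene, 4.46% of all promoters), CACGTG (E-box, 7 genes, 6.02%), CCGGAAGT (ETS, 2 genes, 2.88%) and TGACGTCA (cAMP response element, 2 genes, 1.55%). A match is a string of letters and not a site, and a window without one says only that these letters are absent from it.

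Over the treated arrays 72 of the 119 clones (60.5%) had a listed spot, against 51.8% of all clones. Of the 119, 25 (21%) were listed higher only, against 23.5% of all clones, and 37 (31.1%) lower only, against 22.4%. The other 10 listed clones (8.4% of the 119) were listed in both directions, against 5.93%. Where both spots of a clone had to be listed in 1 direction, 5 members were higher only and 5 lower only, so the excess of lower clones was absent. By gene, 17 were listed higher only, 29 lower only and 12 both ways, and 27 had no listed spot. Of the member spots on treated array 1, 14 were higher against 16 lower. Array 2 had 17 against 21 and array 3 had 16 against 25, so lower spots were the more frequent on each of the 3. Over all clones the arrays had 1991 higher against 1787 lower, 1926 against 2068 and 2037 against 1965, so on array 2 lower spots were the more frequent overall too. The control pairs, cut to their most outlying ratios for their intensity so that the same share of spots remained, had 17 member clones higher only (14.3%, against 17.8% of all clones) and 29 lower only (24.4%, against 18.5%). Lower clones were therefore the more frequent among the members where both channels were titled control as well. The median treated ratio over the 72 listed clones was -0.44 (log2), against 0.03 over all listed clones. Ratios near 0 are not listed, so this median mostly restates the split between higher and lower clones and is not the size of a typical shift.

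**Figure D1:**
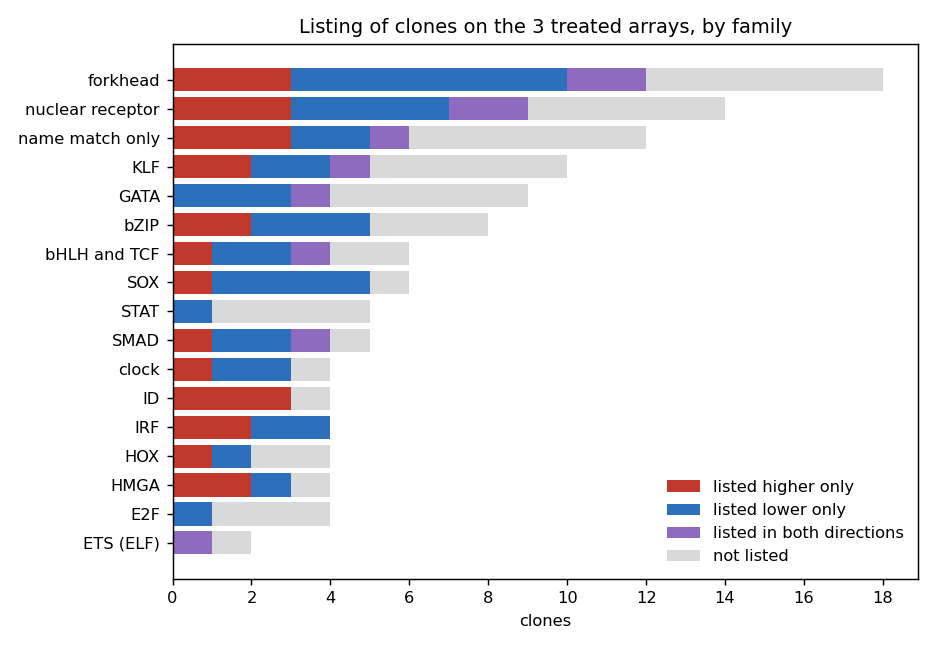
Number of clones (horizontal axis) of each family by their listing on the 3 treated arrays: higher only (red), lower only (blue), both directions (purple) or not listed (grey). Forkhead genes had the most clones, 18, with 3 higher only and 7 lower only, and the 4 ID clones had 3 higher and 0 lower.

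Setting treated against control pairs addresses which transcripts differ after 3 h of dexamethasone. Only 4 member clones were valued in all 5 pairs and could enter the limma fit of 213 clones, and 0 of the 4 were called at an adjusted p under 0.05, where 0.469% of the clones tested were called. At an unadjusted p under 0.05 there were 2 of the 4 (Hmga2 and Foxj2), with a background of 22.5%. In limma on all 8056 clones listed on any treated array and valued in both control pairs, 0 of 71 member clones were called (background 0.0124%), and 28 of the 71 (39.4%) had an unadjusted p under 0.05 against 32.3% of all. Most of these clones, 54 of the 72 listed, were listed on 1 treated array, so their p rests on 1 treated value that was listed because it was outlying, and nothing is read from it. The smallest adjusted p among members there was 0.145. When treated pairs were instead tested against 0, limma called 49 clones higher and 53 lower of the 213, among them 3 of the 4 members (Hmga2, Id2 and Foxj2). That test takes no account of the control pairs. Ratios near 0 are not listed on the treated arrays, so a clone listed in 1 direction on all of them is likely to be called. It therefore gives these 3 genes no support beyond their listing.

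Hmga2, an architectural chromatin protein of growing and embryonic cells, was listed higher on all treated arrays at clone 6105. On the control arrays its Cy3 spots read 1617 and 1444 in pair 1 and 3996 and 4298 in pair 2, and its Cy5 spots read 1389 and 1260, and 3000 and 3684. On the treated arrays Cy3 read 364 at the 1 listed spot of pair 1, 2084 and 2117 in pair 2 and 1634 at the 1 listed spot of pair 3, while Cy5 read 550, then 4167 and 3987, then 2365. Cy5 was thus above Cy3 at each listed treated spot and below it at each control spot. The centred ratios were 0.67, 0.80 and 0.53 in the treated pairs against -0.48 and -0.14 in the control pairs, and the groups did not overlap. Listed ratios are outlying by selection. Of all clones listed on 2 or more arrays and valued in both control pairs, 28.5% lay above both in this way. That share takes in clones listed in any direction. In number, 607 clones lay above both, while 657 were listed higher only on 2 or more arrays. A clone listed higher on each array was therefore likely to lie above both, and this adds little to the listing. By limma the pairs differed by 0.98 (standard error 0.22, adjusted p = 0.208), which did not pass. The treated mean was 0.67 ± 0.13 (SD, n = 3) and the control mean -0.31. With groups by the treatment field the Hmga2 difference was -0.42, the opposite direction.

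The 3 other Hmga2 clones differed among themselves. Clone 11116 was listed once, higher as clone 6105 was, with a ratio of 0.68 in treated pair 3 at Cy3 731 and Cy5 1231 (0.40 with median centring). Clone 6736 was listed once, lower, with -0.81 in treated pair 2 (-1.42 without normalisation), the pair in which clone 6105 had its highest ratio. Its listed spot read 459 and 172 there, while the same spot read 2724 and 2835 in control pair 1. Clone 10970 was not listed.

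Id2, a helix-loop-helix protein that binds E proteins and keeps them from DNA, was listed higher on all treated arrays, but its ratio was raised in the control pairs too. At clone 10643 Cy3 read 2840 and 2898 in treated pair 1, 883 at the 1 listed spot of pair 2, and 8056 and 7911 in pair 3. Cy5 read 4045 and 4045, then 1485, then 11273 and 10873. In control pair 1 Cy3 read 1172 and 1304 and Cy5 2262 and 2424, the largest uncentred Cy5/Cy3 ratio of this clone in the 5 pairs, and in control pair 2 Cy3 read 4067 and 5391 and Cy5 4714 and 5347. Centred ratios were 0.48, 0.70 and 0.49 in the treated and 0.59 and 0.30 in the control pairs, which overlap. By limma they differed by 0.11 (standard error 0.22, adjusted p = 0.839). The second Id2 clone, 11580, was listed in treated pair 1 alone, higher at both spots, with a ratio of 0.76 (0.32 with median centring). Its control pairs were raised too, at 0.56 and 0.41, though the 1 treated value lay above both. In control pair 1 the treatment field names dexamethasone for Cy5 and not for Cy3, and in control pair 2 for both channels.

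Of the other ID genes, Id3 was listed once, higher, at 0.59 in treated pair 2 against 0.03 and 0.15 in the control pairs. That spot read 341 in Cy3 and 346 in Cy5, and without normalisation the ratio was 0.021. Id1 was not listed. Its spots read 1194 to 1865 in control pair 1 and 3430 to 4148 in control pair 2.

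Foxj2, a forkhead factor, was listed lower on all treated arrays at its only clone, at 1 spot of 2 each time. The listed spots read 1417, 1787 and 1365 in Cy3 and 923, 1175 and 994 in Cy5. In the control pairs Cy3 read 513 and 588, then 820 and 792, and Cy5 read 433 and 473, then 906 and 1016. The treated ratios were -0.62, -0.70 and -0.50 and the control ratios 0.09 and -0.12, with no overlap. Of all clones listed on 2 or more arrays and valued in both control pairs, 27.4% lay below both in this way. In number, 584 clones lay below both, while 655 were listed lower only on 2 or more arrays. The lack of overlap therefore adds little to the listing here too. For Foxj2 limma gave a difference of -0.59 (standard error 0.20, adjusted p = 0.208). Cy5 was below Cy3 at each of the 3 listed spots. The direction turned with groups by the treatment field (0.27) and with the Cy5 channels alone (0.17).

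**Figure D2:**
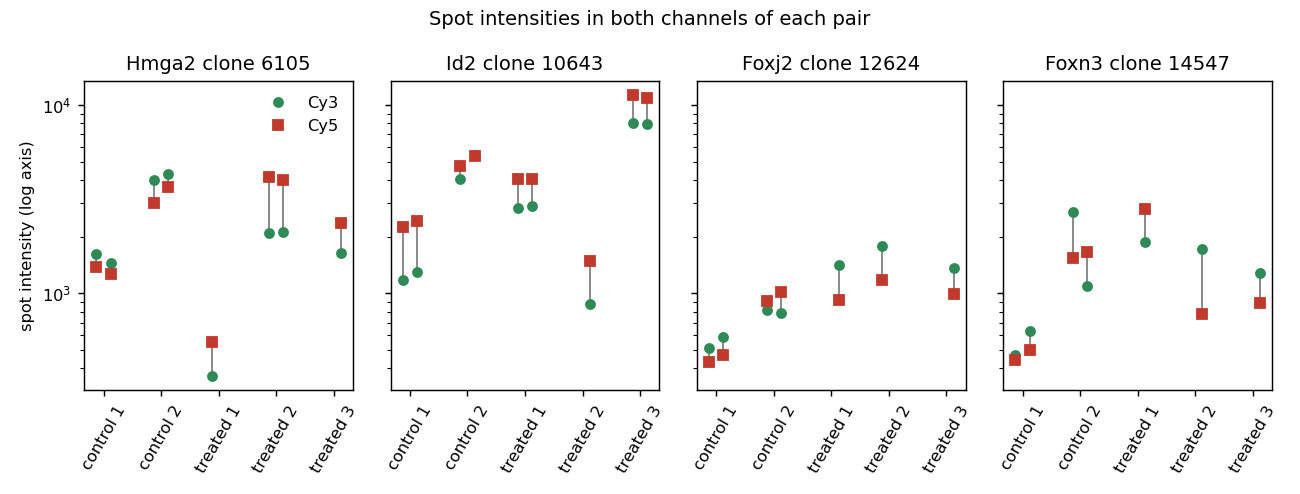
Spot intensity on a log axis for the 4 clones valued in all pairs, with Cy3 as green circles, Cy5 as red squares and a line joining the channels of 1 spot. Hmga2 has Cy5 above Cy3 at all listed treated spots and below it at all control spots, Id2 has Cy5 above Cy3 in control pair 1 too, and Foxn3 changes direction between treated pairs.

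Foxn3, a forkhead repressor, shows how far treated pairs could differ from each other. At clone 14547 the same spot was listed higher in treated pair 1 (1876 in Cy3, 2807 in Cy5) and lower in pairs 2 (1717 and 777) and 3 (1278 and 891). The ratios of 0.57, -1.19 and -0.58 enclose both control values of 0.15 and -0.09, and limma gave -0.43 (standard error 0.55, adjusted p = 0.775). Without treated pair 1 the difference was -0.91, and without pair 2 it was -0.03. Its 2 spots also disagreed within control pair 2, at 2708 and 1548 for one and 1093 and 1662 for the other (Cy3 and Cy5). Foxn3 clone 13289 was listed lower in treated pair 2 (-0.89) and higher in pair 3 (0.45), and clone 2102 higher in pair 3 (0.69).

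Forkhead genes were the largest family, 18 clones of 11 genes, with 3 clones listed higher only, 7 lower only and 2 both ways (14 spots lower and 5 higher). Foxo1 and Foxo3, which act in insulin signalling and stress and are known to respond to glucocorticoids in other tissues, were listed once per clone. Foxo1 stood at -0.80 in treated pair 2 for clone 3044, against 0.45 and -0.21 in the control pairs, and at -0.48 in pair 3 for clone 12209, against -0.09 and 0.08. Foxo3 stood at 1.00 in treated pair 2, against -0.11 and -0.37. Without normalisation Foxo3 stood at 0.46 and Foxo1 clone 3044 at -1.33, and with median centring Foxo1 clone 12209 stood at -0.78. Foxm1, a driver of mitotic genes, had both spots lower in treated pair 3 (2348 and 2011 in Cy3, 1590 and 1179 in Cy5), a ratio of -0.67 against -0.03 and 0.15. Foxn2 clone 6306 was lower in treated pairs 1 and 3 (-0.91 and -0.72, against -0.04 and -0.14), whereas Foxn2 clone 4900 was higher in pair 2 (0.67). Both listed Foxk2 clones were lower, and clone 346 was as low in the control pairs (-0.47 and -0.45) as in the treated pair (-0.51).

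Among SMAD genes, the transducers of TGF-beta and BMP signals, directions differed by gene. Smad1, which carries BMP signals, was listed higher in treated pairs 2 and 3 with ratios of 0.97 and 0.58 against 0.02 and 0.01 in the control pairs. Its listed spot in pair 2 read 237 in Cy3 and 304 in Cy5. Smad4, the partner shared by both branches, was lower at clone 10006 in treated pairs 1 and 3 (-0.71 and -0.45), against 0.32 and 0.41, with no overlap. The share of all clones listed on 2 or more arrays that lay below both control pairs was 27.4%. As for Foxj2, that share takes in clones listed in any direction, and a clone listed lower only was likely to lie below both. In the limma fit of clones listed on any array, which drops the pair without a value, Smad4 differed by -0.95 (standard error 0.23, adjusted p = 0.145). In the limma fit of clones listed on 2 or more arrays its adjusted p was 0.187. The second Smad4 clone was not listed. Smad3 had 3 lower spots and 1 higher over the treated arrays, the 2 spots of treated pair 2 being opposed, and no value in control pair 2. Smad5 was lower once (-0.68 in treated pair 3 against -0.26 and 0.12).

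The bZIP genes include the AP-1 subunits, which the receptor is known to restrain. Jun was listed once, lower, with 940 in Cy3 and 567 in Cy5, a ratio of -0.86 in treated pair 3 against 0.34 and 0.27 in the control pairs. Fos was listed at 1 spot, lower, with -0.85 in treated pair 2 against 0.20 and 0.53, and the ratio was -0.18 with median centring. That spot read 5332 in Cy3 and 3349 in Cy5, while the clone read 312 to 1328 over all spots of the control arrays and its other spot was not listed. Fosl2 was lower in treated pairs 2 and 3, with -0.64 and -0.44 against 0.18 and 0.21, at a different spot each time. The limma fit of clones listed on any array, without treated pair 1, gave Fosl2 -0.74 (standard error 0.22, adjusted p = 0.145). In the limma fit of clones listed on 2 or more arrays its adjusted p was 0.187. Fosl1 went the other way, with both spots higher in treated pair 2 (0.82 against 0.21 and -0.25), and 0.25 without normalisation. Its spots read 270 to 408 there but 1694 to 3321 on the control arrays, and no other treated array listed it. Atf6, a sensor of stress in the endoplasmic reticulum, was higher once (0.45, against 0.35 and 0.32 in the control pairs), and Atf2, Atf4 and Atf6b were not listed.

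**Figure D3:**
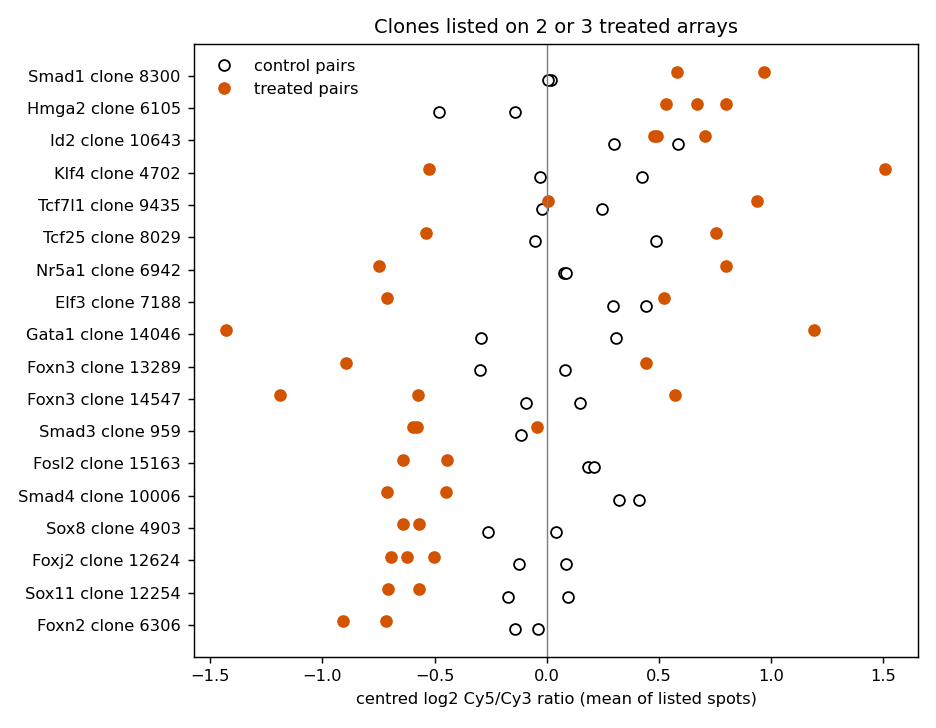
Centred log2 Cy5/Cy3 ratio of the 18 clones listed on 2 or 3 treated arrays, with treated pairs as filled orange points and control pairs as open points. The treated points of Smad1 and Hmga2 lie above both control pairs and those of Fosl2, Smad4, Sox8, Foxj2, Sox11 and Foxn2 below both, while those of Klf4, Gata1, Nr5a1, Elf3, Tcf25 and both Foxn3 clones fall on both sides of 0.

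In all, 18 member clones (15.1%) were listed on 2 or more treated arrays, against 13.7% of all clones. There were 3 higher only (2.52%, background 4.21%), 6 lower only (5.04%, background 4.2%) and 9 in both directions (7.56%, background 5.31%). On all 3 arrays 5 members (4.2%) were listed, against 1.38% of all clones. Of the 17 with values in both control pairs, 2 lay above both (11.8%, background 28.5%) and 6 below both (35.3%, background 27.4%). These backgrounds are high because a listed ratio is outlying by selection. The 9 clones listed in both directions include Klf4, Elf3, Gata1, Nr5a1, Tcf7l1 and Tcf25.

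KLF proteins are zinc finger factors of epithelial growth and differentiation. Klf6 was higher once at each of its 2 clones, with 0.61 in treated pair 1 and 0.59 in pair 2. With median centring these became 0.14 and 1.16. The second clone was as high in control pair 1 (0.64) but not in control pair 2 (0.12). Klf4 clone 339 was lower at both spots of treated pair 2 (-0.62, or -0.17 with median centring), with control pairs at -0.75 and -0.23. Klf4 clone 4702 had 1 spot higher in treated pair 1 (1.51, from 121 in Cy3 and 300 in Cy5) and the other lower in pair 3 (-0.53). Klf16 was lower once (-1.02), and Klf5, Klf7, Klf11 and Klf17 were not listed.

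SOX genes, which encode HMG-box factors of cell fate, had 4 clones lower only and 1 higher only of 6 (7 spots lower and 1 higher). Sox8 was lower in treated pairs 2 and 3 (-0.64 and -0.57) against 0.04 and -0.26. Sox11 was lower in pairs 1 and 3 (-0.71 and -0.57) against 0.10 and -0.17. Sox21 was lower at both spots of pair 3, with 438 and 308 in Cy3 and 277 and 190 in Cy5, a ratio of -1.09 against -0.14 and 0.02. Sox4 was the gene listed higher, at 0.51 against 0.10 and 0.49 in the control pairs. Of 9 GATA clones 3 were lower only, 1 both ways and 0 higher only. Gata2 clone 11014 had both spots lower in treated pair 3 (-0.53, against -0.40 and -0.25), at 2235 to 4057 against 338 to 1134 on the control arrays. Gata3, a factor of the collecting duct lineage, was not listed, and its spots read 232 to 1343 on the control arrays. Elf3, an epithelial ETS factor, was lower in treated pair 2 (-0.71) and higher in pair 3 (0.52), with control pairs at 0.30 and 0.45.

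Nuclear receptors other than the glucocorticoid receptor had 3 clones higher only, 4 lower only and 2 both ways of 14. Nr1d2, the clock repressor REV-ERB beta, was higher once (0.53 in treated pair 1 against -0.07 and 0.28). Nr2f2, the orphan receptor COUP-TFII, was lower once (-0.66 against -0.07 and 0.30). The 2 Nr2f1 clones were listed in opposite directions. Of the clock genes Npas2 was higher once (0.65), Arntl and Cry1 were lower once (-0.60 and -0.83), and Per3 was not listed.

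Of the factors of cytokine signalling, 1 of 5 STAT clones and 4 of 4 IRF clones were listed. Stat3 was lower once, at 1 of its 3 clones (-0.64 in treated pair 2 against 0.18 and 0.26, and -1.21 without normalisation), and Stat2 and Stat6 were not listed. Irf1, an interferon-induced factor, was lower once (-0.63 in treated pair 1 against 0.23 and 0.16, and -1.09 with median centring), as was Irf9 (-0.88). Irf8, best known from myeloid cells, was higher at both spots of treated pair 3, with 474 and 227 in Cy3 and 1136 and 550 in Cy5 (1.03 against -0.10 and -0.08). Irf3 was higher once (0.51). Of the E2F genes, regulators of S phase, E2f7 was lower once (-0.55) and E2f5, E2f6 and E2f8 were not listed. Among the 4 HOX genes Hoxb3 had both spots lower in treated pair 1 (-0.72) and Hoxb1 1 spot higher (0.76). In the remaining group of bHLH and TCF genes Tcf3 and Tcf4 were lower once, Tcf21 was higher once and Tcf7l1 was listed both ways.

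Clones of 1 gene did not always share a direction. Of 21 genes with several clones, 12 had at least 2 clones listed, and in 6 of them all listed clones shared a direction: Atf7ip, Id2 and Klf6 higher, and Foxk2, Foxo1 and Gata2 lower. The same count was not made over all genes, so no trait of these genes is read from it. Duplicate spots were rarely listed together. In 14 of 95 cases of a member clone listed on an array (14.7%) both spots were listed, against 12.8% over all clones, and in 3 of the 14 (21.4%) the spots had opposite directions, against 11.7% over all clones. On the control pairs, where nearly all spots have values, the 2 spots of a member clone differed by a median of 0.27 (log2) in each pair, against 0.25 over all clones.

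The control pairs give the ratio with both channels titled control. Over 15561 clones limma found a Cy5 against Cy3 difference for 0 of 117 member clones, where 0.321% of all clones were called. Each member clone had the same standard error in this fit (0.1873), so its p does not measure the clone's own spread. At an unadjusted p under 0.05 there were 11 members (9.4%), against 8.68% of all clones. The strongest were Klf4 clone 339 (-0.49, limma adjusted p = 0.306) and Id2 clone 11580 (0.49, limma adjusted p = 0.322), followed by Foxk2 clone 346 (-0.46) and Id2 clone 10643 (0.44). Both Id2 clones and both lower clones were listed in the same direction on a treated array. Of 23 members listed 1 way in the treated and in the equally cut control pairs, 13 (56.5%) had the same direction in both, against 58.1% of 2649 such clones overall. Across the 117 clones, which share their arrays and are not replicates, control pair 1 and control pair 2 had a correlation of r = 0.18, against 0.15 over all clones.

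**Figure D4:**
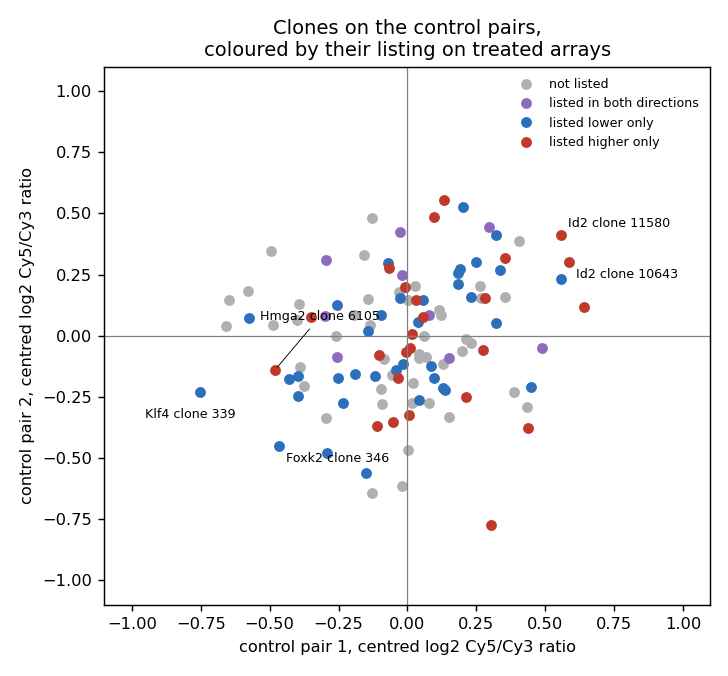
Centred log2 Cy5/Cy3 ratio of 117 member clones in control pair 1 (horizontal) and control pair 2 (vertical), coloured by their listing on the treated arrays. The 2 Id2 clones lie at the upper right, at 0.56 and 0.41 and at 0.59 and 0.30, while Klf4 clone 339 and Foxk2 clone 346 lie at the lower left and Hmga2 clone 6105 below 0 in both pairs.

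Partners and coregulators of these factors were set beside them as a list of 59 genes, of which 37 were measured on 51 clones. By gene 12 were listed higher only, 7 lower only and 3 both ways, and 15 were not listed. By clone 26 of the 51 (51%) were listed, against 51.8% of all clones, with 16 higher only (31.4%, background 23.5%) and 7 lower only (13.7%, background 22.4%). Of the single clone in the limma fit, 0 passed. Sin3a, the scaffold of a histone deacetylase complex, had 4 spots higher and 0 lower (mean treated ratio 0.64 against -0.01 in the control pairs), and Csnk1e, a clock kinase, 3 higher and 0 lower (0.60 against 0.09). Smarca4, a chromatin remodelling ATPase, Nfkbia, an inhibitor of NF-kappaB, and Klf9, a KLF factor, had 2 higher and 0 lower each (1.58, 0.71 and 0.60). Rora, a nuclear receptor of the clock, had 3 spots lower and 0 higher (-0.80 against 0.16). Hdac1, a histone deacetylase, and Myc, a growth regulator, had 2 spots lower and 0 higher each, at -0.57 against 0.31 and at -0.53 against 0.12. Nr3c1, the receptor itself, was not listed.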

How the data were processed

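Spot intensities of 10 channels (5 pairs) were analysed. The deposited values are linear intensities, 1 whole number per spot and channel, and Imagene 4.0 is named in the submitters' processing notes. For background correction, normalisation and the selection of treated spots, a method is not given in the sources used here.

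Channels were paired by the numbers in the titles. In the control pairs channels of 1 number correlated over spots at r = 0.933 and 0.927, and those of different number at 0.727 to 0.782. Log2 Cy5/Cy3 ratios with no value added were centred by lowess in the control pairs (statsmodels 0.14.6, span 0.2) and on the midpoint of the empty band of ratios in the treated arrays (windows of 150 spots, span 0.3), and spots of a clone were averaged. Clones have 1 gene symbol (9866), several (274) or none (5460) in the platform annotation, and only the first kind could be members. All 85 symbols match the RefSeq symbol of their Entrez gene.

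limma 3.58.1 in R 4.3.3 compared treated with control pairs, with Benjamini-Hochberg adjustment over all clones tested and a threshold of 0.05. It was checked on simulated data with complete values and no selection of outlying ratios. The check therefore does not cover the selection of spots on the treated arrays. Listing counts carry no test. The members, lists and tests were chosen with earlier results of these data known. Named genes were members valued in all pairs, members listed on all treated arrays, members listed on at least 2 arrays in 1 direction with both spots listed on 1 of them, and 28 genes fixed by name, of which 16 have a clone here; others are named to describe their family and were chosen after their values were seen. The 12 others, among them Per1, Cebpb, Junb and Stat5a, were not analysed here.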

Additional observations from a re-analysis of the deposited data

How the results depend on the processing

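Groups set by the treatment field and the filter on dim spots in the listing counts were added after the data were seen. limma called 0 clones higher and 1 lower in all. This became 3 higher and 0 lower with the Cy5 channels alone, and 49 higher and 53 lower with treated pairs tested against 0, where 3 transcription factor clones were called. Nothing is read from the test against 0, since treated ratios near 0 are not listed. The lower count was 0 with no replicate block (10 channels in 1 fit, their pairing ignored) and 0 with groups by the treatment field. It was also 0 on clones listed on 2 or more arrays and in each fit that left out 1 treated pair. With a random replicate block for the pair it was 1, and 0 members were called. With Cy5 alone all clones shifted by a median of -0.72 (log2) and with no replicate block by -0.57, so a change of sign there is no reversal on its own. Under these settings Hmga2 stood at those medians (-0.73 and -0.59) and Id2 above them (-0.22 and -0.0621), while Foxj2 (0.17 and 0.29) and Foxn3 (0.0556 and 0.0806) were above both them and 0. With the treatment field, where the median was -0.05, Hmga2 (-0.42), Foxj2 (0.27) and Foxn3 (0.0247) turned. Id2 was -0.11 with median centring (median of all clones -0.25) and -0.0284 without control pair 2, and ran from -0.0284 to 0.26 with each pair left out. Counting only clones with both spots listed in 1 direction gave 5 members higher and 5 lower, so lower clones were not the more frequent there. Fewer clones qualify, and the same count over all clones is not given here. The counts of 25 and 37 ran from 18 to 22 and from 27 to 33 with each treated array left out, and 0 of 109 member spots changed direction with median centring or no normalisation. Sizes moved more: of 23 named treated means, 11 moved by over 1.5 times with median centring and 7 without normalisation. The dye effect over all clones, 5 higher and 45 lower, became 11 and 71 with an intensity trend, and 0 in both directions under median centring or without normalisation. Where no cause is named here, the cause was not tested.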
